A study of Homo sapiens with 9 samples.

Results

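The genes described here encode bromodomain proteins other than BRD1 and its paralogues BRPF1 and BRPF3, in human embryonic kidney HEK293T cells in which the amount of BRD1 was raised or lowered. The set was named gene by gene, and a gene was measured through every probe set whose annotation gave its symbol and no other. Of the 35 genes named, 34 had such a probe set, 127 probe sets in all, of 45259 probe sets with a single symbol that covered 18239 genes. ASH1L was not analysed here.

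Bromodomains are folded modules that bind acetylated lysines, mainly on histone tails, and the proteins that carry them read, write or act on acetylated chromatin as parts of larger complexes. BRD1 carries a bromodomain itself and is a scaffold of histone acetyltransferase complexes, so its amount could be related to that of the other readers. The proteins described include the BET family, histone acetyltransferases, subunits of TFIID, NuA4 and SWI/SNF, and the large regulatory subunits of ISWI remodelers.

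Total RNA was hybridized to 9 Affymetrix U219 arrays, all of HEK293T cells. One array each came from a cell line that stably expressed tagged BRD1-S, from a line that stably expressed tagged BRD1-L, and from untreated cells. BRD1 siRNA was given to the cells of 3 arrays and control siRNA, named mock in the labels, to the cells of 3 arrays. The siRNA arrays formed the pairs Qiagen, Dharmacon 1 and Dharmacon 2, named after the reagent, and siRNA values are given in this order of pairs throughout. BRD1-S and BRD1-L cells are 1 line each with 1 array each, so neither comparison with untreated cells has a replicate, and differences between the lines that do not come from BRD1 cannot be told apart from it. The study describes the knockdowns as separate experiments, while the labels name no culture, so p-values measure the spread between these arrays.

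The array signal of BRD1 itself was higher in both lines and lower with siRNA, as labelled. BRD1 had a log2 intensity of 9.27 in BRD1-S cells, 9.30 in BRD1-L cells and 7.61 in untreated cells. It had 7.07, 6.94 and 6.75 with BRD1 siRNA, against 7.82, 7.79 and 7.75 with control siRNA, and the groups did not overlap. The limma estimate was -0.86 ± 0.085 (SE, 3 arrays a group), the smallest p of 18239 genes, with an adjusted p of 0.869 in the limma fit. The signal of the 2 lines rested on 1 of the 3 BRD1 probe sets, which was higher by 4.78 in BRD1-S and by 4.94 in BRD1-L than in untreated cells, while the other 2 probe sets differed by 0.09 and 0.10 in BRD1-S cells and by 0.00 and 0.12 with BRD1-L. All 3 probe sets were lower with BRD1 siRNA in each pair. Array medians lay between 5.41 and 5.53. Of the HEK293T markers 7 of 8 measured were above background, and of 14 measured markers of blood, fibroblasts, endothelium, liver and mature kidney tubule 1 was, HBB.

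The arrays were not equally alike, which touches each siRNA result given here. The Qiagen and Dharmacon 1 control arrays correlated best with each other (r = 0.998 across probe sets). The BRD1 siRNA arrays of these pairs also correlated best with each other (r = 0.9962). They had 0.9926 and 0.9937 with their own controls and 0.9931 and 0.9949 with the Dharmacon 2 control. The Dharmacon 2 control array correlated best with the Dharmacon 2 BRD1 siRNA array (r = 0.9971) and nearly as well with the BRD1-S array (r = 0.9967). Between the Qiagen and Dharmacon 1 controls 0.126% of all genes and 0 of 34 bromodomain genes differed by more than 1.5-fold. The Dharmacon 2 control differed by that much from the Qiagen control at 4.33% of all genes and at 0 bromodomain genes, and from the Dharmacon 1 control at 4.64% of all genes and at 1 bromodomain gene, BRD9. BRD9, a subunit of the non-canonical SWI/SNF complex, had 7.34, 7.59 and 6.89 on the 3 control siRNA arrays. Its difference of 0.71 between 2 controls was larger than any difference of a bromodomain gene with BRD1 siRNA in a pair, the widest of which was 0.62.

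Most bromodomain genes were detected above background in HEK293T cells. The background level of an array was set at the 95th percentile of 360 probe sets of olfactory receptor genes, which are mostly silent outside the nose, and it lay between 4.12 and 4.34 on the log2 scale. A gene counted as above background when at least as many of its probe sets lay above this level on all 9 arrays as did not. By this measure 30 of 34 bromodomain genes (88.2%) were above background, against 59.7% of all genes, and 25 of them had every probe set above it. Both BET genes, both genes of the TFIID and NuA4 group, all 5 SWI/SNF genes and all 6 ISWI regulatory subunits were above background. TRIM66, a member of the TIF1 family of TRIM proteins, lay within or just above the background range among these 30, between 4.19 and 4.74, with 1 of 2 probe sets above it. On the BRD1-S array its gene value of 4.19 was under the background level of 4.20.

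The exceptions were the SP100 family and KAT2B. SP100, SP110 and SP140 are components of nuclear bodies whose genes are known to respond to interferon, and none of their 9, 5 and 5 probe sets was above background on all arrays. The gene value of SP100 lay between 3.49 and 3.73, that of SP110 between 3.89 and 4.16, and that of SP140 between 3.49 and 3.63. KAT2B, also known as PCAF, an acetyltransferase of the SAGA and ATAC coactivator complexes, had 1 of 3 probe sets above background and a gene value between 5.48 and 5.91. That 1 probe set of KAT2B lay between 8.27 and 8.91 on the 9 arrays. The count of KAT2B as not above background thus rests on its other probe sets and does not show that the gene is silent. Its paralogue KAT2A was above background, between 8.31 and 8.93. Levels of different genes rest on different probes and were not compared with each other on this scale. No gene value of the SP100 family differed by more than 1.5-fold in any of the 5 comparisons.

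**Figure D1:**
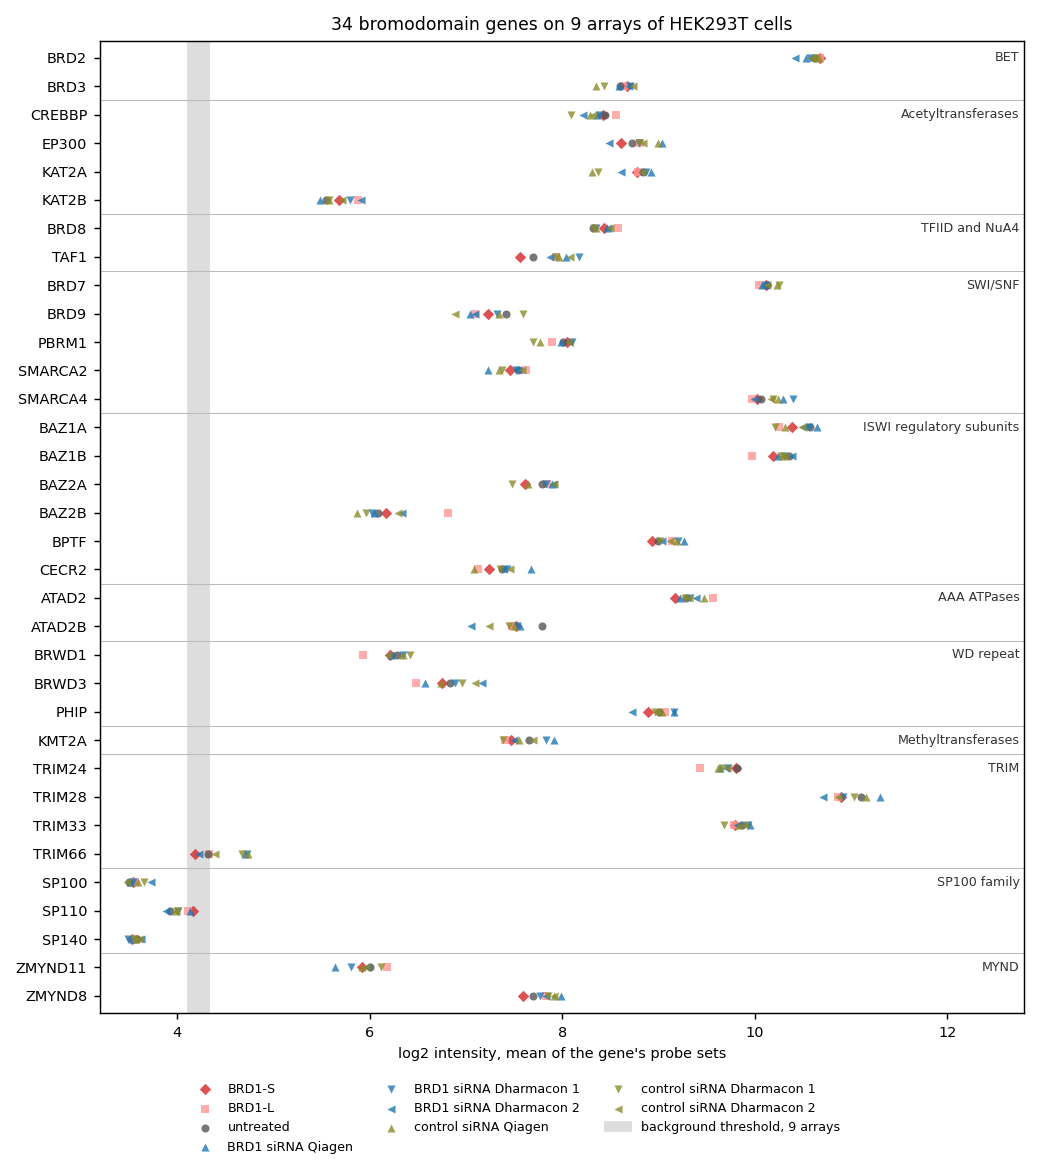
Level of the 34 bromodomain genes on each of the 9 arrays. The x axis gives the log2 intensity as the mean of a gene's probe sets, rows are genes grouped by role, each point is 1 array, and the grey band spans the background threshold of the 9 arrays, 4.12 to 4.34. SP100, SP110 and SP140 lie in or left of the band and the 9 points of most other genes lie close together, with BAZ2B in BRD1-L cells as the point farthest from its neighbours.

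The promoter sequences of genes above and not above background, which the arrays did not use, were also compared. RefSeq promoter windows of 300 bases, most of each before the annotated start, were matched by symbol for 29 of the 34 genes on GRCh38.p14. BAZ1A, TRIM28, BPTF, ATAD2 and TRIM24 had no match. The dinucleotide CG, which reads the same on both strands, was counted in each window, with the highest count kept for a gene with several windows. The median was 36 CG steps over 25 bromodomain genes above background and 8.5 over the 4 that were not. Apart from KAT2B these 4 are the SP100 family, whose windows all lie on chromosome 2, with those of SP110 and SP140 overlapping. The median of 8.5 thus rests mainly on a single gene family. Over all protein-coding genes with a window the medians were 29 for 8971 genes above background, 10 for 5222 genes not above it and 24 for all 15843, which include genes with no probe set, so the same order held across the genome. KAT2B was the exception among the 4 genes not above background, with 40 CG steps, and 1 of its 3 probe sets was above background. CECR2, which was above it, had 2 CG steps. The counts describe these windows and were not tested.

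The promoters of SP140 and SP110, not above background, are shown beside those of 3 genes above it that recur in the results, with each CG step in capitals. The SP140 window lies at chr2:230225486-230225785 on the plus strand and the SP110 window at chr2:230225587-230225886 on the minus strand, so the windows share 199 bases and the genes run in opposite directions, with 5 CG steps in the SP140 window and 8 in that of SP110. The BRD3 window at chr9:134067977-134068276, minus strand, has 56 CG steps, more than any other bromodomain gene. The KAT2A window at chr17:42121318-42121617, minus strand, has 18, and the BAZ2B window at chr2:159712393-159712692, minus strand, has 31.
SP140: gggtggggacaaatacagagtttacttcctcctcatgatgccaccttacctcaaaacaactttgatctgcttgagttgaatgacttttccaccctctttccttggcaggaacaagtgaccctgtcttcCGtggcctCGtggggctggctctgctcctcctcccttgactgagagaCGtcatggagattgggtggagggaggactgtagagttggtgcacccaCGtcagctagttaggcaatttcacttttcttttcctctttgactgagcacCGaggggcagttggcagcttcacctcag
SP110: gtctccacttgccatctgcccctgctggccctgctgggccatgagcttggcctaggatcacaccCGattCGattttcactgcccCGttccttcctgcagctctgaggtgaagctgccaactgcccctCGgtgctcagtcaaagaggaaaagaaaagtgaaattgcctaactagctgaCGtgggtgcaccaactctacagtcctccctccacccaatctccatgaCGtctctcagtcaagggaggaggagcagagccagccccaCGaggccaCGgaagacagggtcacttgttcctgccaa
BRD3: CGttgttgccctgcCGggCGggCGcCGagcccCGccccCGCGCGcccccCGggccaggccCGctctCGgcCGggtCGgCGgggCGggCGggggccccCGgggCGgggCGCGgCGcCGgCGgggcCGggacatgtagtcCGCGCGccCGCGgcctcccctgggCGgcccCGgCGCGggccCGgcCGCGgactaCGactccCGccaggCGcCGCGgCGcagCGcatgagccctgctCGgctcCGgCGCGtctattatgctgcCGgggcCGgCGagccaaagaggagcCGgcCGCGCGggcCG
KAT2A: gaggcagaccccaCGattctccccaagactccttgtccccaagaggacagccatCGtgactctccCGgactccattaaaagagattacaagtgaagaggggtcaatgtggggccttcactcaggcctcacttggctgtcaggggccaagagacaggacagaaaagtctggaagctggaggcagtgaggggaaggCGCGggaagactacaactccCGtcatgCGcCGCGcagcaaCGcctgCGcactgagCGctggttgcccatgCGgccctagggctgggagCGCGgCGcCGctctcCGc
BAZ2B: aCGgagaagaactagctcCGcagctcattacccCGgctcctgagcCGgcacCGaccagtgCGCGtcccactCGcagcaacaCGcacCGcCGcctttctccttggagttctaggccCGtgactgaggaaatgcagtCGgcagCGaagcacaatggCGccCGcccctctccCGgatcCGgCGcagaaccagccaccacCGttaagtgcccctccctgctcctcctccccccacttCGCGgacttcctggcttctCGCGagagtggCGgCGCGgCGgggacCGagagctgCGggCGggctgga

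In BRD1-S cells no bromodomain gene passed the study's threshold of 1.5-fold, 0 of 34, against 1.13% of all genes. The differences from untreated cells lay between -0.27 for ATAD2B, a AAA ATPase, and 0.24 for SP110 on the log2 scale. Of the 34 genes 26 were lower in BRD1-S cells than in untreated cells, against 9066 of all 18239 genes. The median difference was -0.08, while the median over all genes was 0. These counts rest on 1 array against 1 array and were not tested. A threshold set on any single probe set added SP110, at 1 probe set that lay near background, against 2.73% of all genes. Of the 34 genes 14 (41.2%) fell outside the range of the 4 arrays without an altered BRD1 level (untreated and control siRNA), against 34.9% of all genes, a share near the background.

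In BRD1-L cells 1 bromodomain gene of 34 passed 1.5-fold, against 4.81% of all genes. This gene was BAZ2B, which encodes a regulatory subunit of ISWI remodelers. BAZ2B had 6.17 in BRD1-S cells, 6.81 in BRD1-L cells and 6.08 in untreated cells. With BRD1 siRNA it had 6.05, 6.03 and 6.34, against 5.87, 5.97 and 6.30 with control siRNA (6.14 ± 0.17 against 6.05 ± 0.22, SD, n = 3 each). The BRD1-L array was the highest of the 9, and its difference from untreated cells of 0.72, or 1.65-fold, was wider than the whole spread of the 3 control siRNA arrays. All 3 probe sets of BAZ2B were higher in BRD1-L cells, by 1.03, 0.62 and 0.53. Against the Dharmacon 2 control, a choice made after the values were seen, BAZ2B differed by 0.51 and no longer passed 1.5-fold. BRWD3 passed in its place at -0.60, 1 gene of 34 against 3.57% of all genes. The other ISWI regulatory subunits differed by between -0.39 and 0.15 in BRD1-L cells, and BAZ1B, a subunit of the WICH remodeler, was lower by 0.39 at 9.97 in BRD1-L cells and 10.36 in untreated cells.

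The other differences in BRD1-L cells lay between -0.39 and 0.33. Over all 34 genes 18 were higher and 16 lower, with a median of 0.02, against 8891 higher and 9116 lower of all 18239 genes. TRIM24, a transcriptional coregulator of the TIF1 family, lay at the low end with 9.43 in BRD1-L cells and 9.82 in untreated cells, and KAT2B at the high end with 5.88 in BRD1-L cells and 5.55 in untreated cells. The 3 WD repeat genes BRWD1, BRWD3 and PHIP differed by -0.36, -0.35 and 0.06. With any single probe set counted, 4 genes passed 1.5-fold, BAZ1A, BAZ2B, BRWD1 and SP110, against 10.4% of all genes. The BRD1-L value of 17 of 34 genes (50%) fell outside the range of the 4 arrays without an altered BRD1 level, against 49.1% of all genes.

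**Figure D2:**
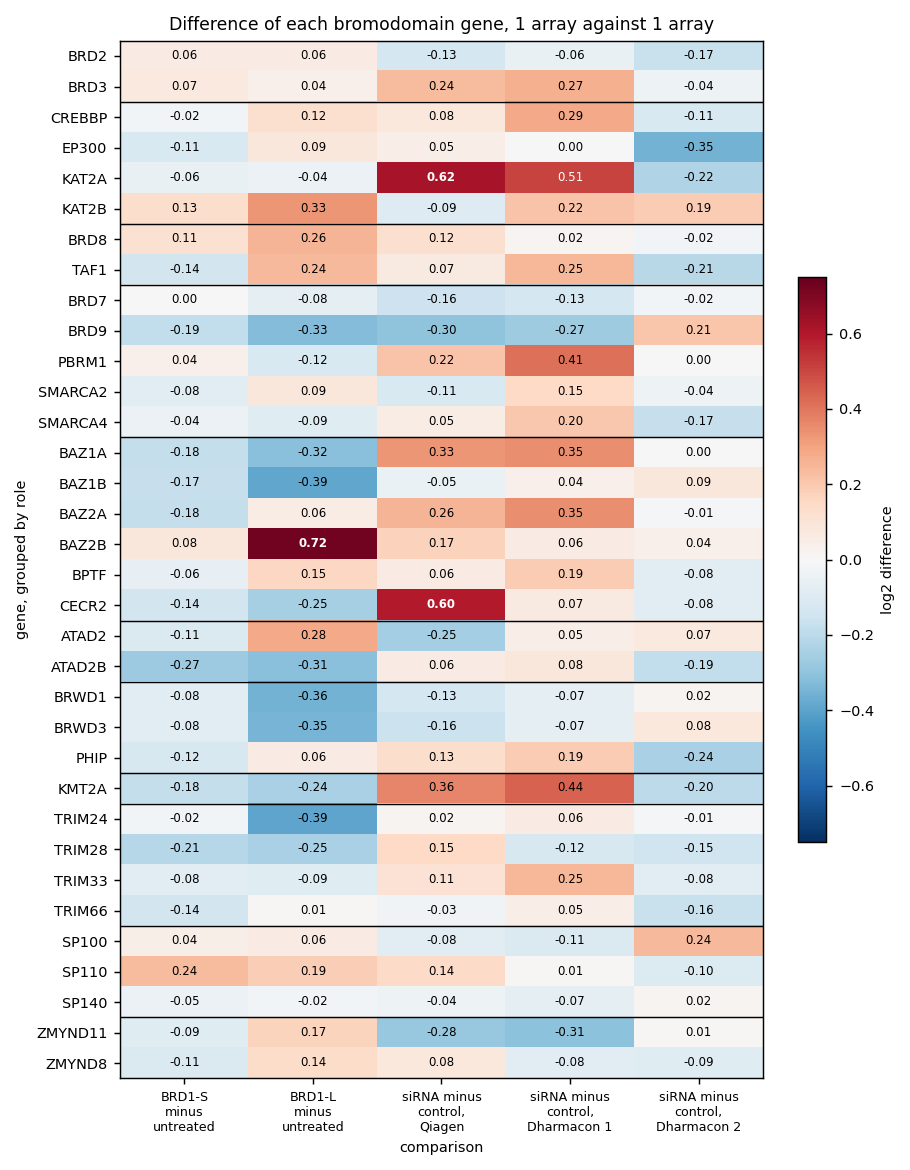
Difference of each bromodomain gene in the 5 comparisons, 1 array against 1 array. Columns are BRD1-S or BRD1-L minus untreated cells and BRD1 siRNA minus control siRNA in each pair, rows are genes grouped by role, and colour and printed number give the log2 difference, in bold past 1.5-fold. Bold type marks 3 cells, BAZ2B in BRD1-L cells at 0.72 and KAT2A and CECR2 in the Qiagen pair at 0.62 and 0.60.

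BRD1 siRNA was not accompanied by a called difference at any bromodomain gene. With limma on the 6 siRNA arrays, the reagent as covariate, 0 of 34 genes had an adjusted p below 0.05, against 0% of all genes. The same limma fit did not call BRD1, the target of the siRNA, at an adjusted p of 0.869. The absence of calls therefore does not show that the 34 genes were unchanged. At an unadjusted p below 0.05 there were also 0 of 34, against 4.9% of all genes. The estimates for the 34 genes lay between -0.19 and 0.30 with standard errors between 0.065 and 0.19, 20 above 0 and 14 below, and a median of 0.02. Adjusted p ranged from 0.869 to 0.999. A difference of the siRNA effect between the Qiagen and Dharmacon reagents was called at 0 bromodomain genes, against 0% of all genes. At an unadjusted p below 0.05 that difference held for 1 of 34 genes, CECR2, against 0.877% of all genes, with an estimate of 0.60 and an adjusted p of 1.00 in limma.

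The pairs gave different pictures. In the Qiagen pair 2 of 34 genes, KAT2A and CECR2, passed 1.5-fold with BRD1 siRNA, against 3.51% of all genes either way. Both were higher, and of all 18239 genes 395 were higher and 246 lower past 1.5-fold. Of the 10882 genes above background, to which both belong, 381 were higher and 231 lower. In the Dharmacon 1 pair 0 of 34 passed, against 3.37% of all genes, and in the Dharmacon 2 pair 0 of 34, against 0.603%. Counted by any single probe set, 7 of 34 genes (20.6%) passed in the Qiagen pair, against 13.3% of all genes. In the Dharmacon 1 pair 5 (14.7%) passed, against 10.1%, and in the Dharmacon 2 pair 2 (5.88%), against 3.13%. A gene with more probe sets passes this rule more easily. The 34 genes had 127 probe sets and the 18239 genes 45259, so these shares are not like for like. The median difference of the 34 genes was 0.06 in the Qiagen pair, 0.06 in the Dharmacon 1 pair and -0.04 in the Dharmacon 2 pair, where the median over all genes was -0.03.

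Of the acetyltransferases, KAT2A differed most by gene value. KAT2A (GCN5), the catalytic subunit of SAGA and ATAC, had 8.78 in BRD1-S cells, 8.79 in BRD1-L cells and 8.83 in untreated cells. It had 8.93, 8.88 and 8.61 with BRD1 siRNA, against 8.31, 8.37 and 8.83 with control siRNA (8.80 ± 0.17 against 8.50 ± 0.29, SD, n = 3 each). The groups overlapped, since the Qiagen and Dharmacon 1 controls were the lowest of the 9 arrays while the Dharmacon 2 control was at the level of untreated cells. The limma estimate was 0.30 ± 0.17 (SE), adjusted p 0.869. Set against the Dharmacon 2 control, a choice made after the values were seen, the Qiagen and Dharmacon 1 BRD1 siRNA arrays differed by 0.10 and 0.05 in place of 0.62 and 0.51. KAT2A rested on 1 probe set, so its value was not averaged over probe sets as those of CREBBP and KAT2B were.

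CREBBP and EP300, paralogous acetyltransferases that act as general coactivators, differed less by their gene values. CREBBP had 8.42 in BRD1-S cells, 8.56 in BRD1-L cells and 8.44 in untreated cells. With BRD1 siRNA it had 8.36, 8.38 and 8.21, against 8.29, 8.10 and 8.32 with control siRNA, and the limma estimate was 0.08 ± 0.093 (SE). Its 5 probe sets varied, and by their median CREBBP differed by 0.63 in the Qiagen pair, past 1.5-fold, by 0.53 in the Dharmacon 1 pair and by -0.24 in the Dharmacon 2 pair. EP300 had 8.61 in BRD1-S cells, 8.81 in BRD1-L cells and 8.73 in untreated cells. With BRD1 siRNA it had 9.04, 8.80 and 8.49, against 8.99, 8.80 and 8.84 with control siRNA, with an estimate of -0.10 ± 0.11 (SE). For both genes the siRNA groups overlapped and the BRD1-L value lay above the BRD1-S value.

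CECR2, the regulatory subunit of the CERF remodeler, stood out in the Qiagen pair alone. CECR2 had 7.24 in BRD1-S cells, 7.12 in BRD1-L cells and 7.37 in untreated cells. It had 7.68, 7.42 and 7.38 with BRD1 siRNA, against 7.08, 7.36 and 7.46 with control siRNA (7.50 ± 0.16 against 7.30 ± 0.19, SD, n = 3 each). The Qiagen pair held both the highest and the lowest of the 9 values. The limma estimate over the 3 pairs was 0.20 ± 0.13 (SE), adjusted p 0.869, and rested on 1 probe set.

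PBRM1 is the member that the study names as a protein partner of BRD1, and it encodes the polybromo subunit of the PBAF form of SWI/SNF. PBRM1 had 8.05 in BRD1-S cells, 7.89 in BRD1-L cells and 8.01 in untreated cells. It had 7.99, 8.10 and 8.07 with BRD1 siRNA, against 7.78, 7.69 and 8.07 with control siRNA (8.05 ± 0.06 against 7.85 ± 0.20, SD, n = 3 each). As for KAT2A, the Qiagen and Dharmacon 1 controls were the lowest of the 9 arrays, and the Dharmacon 2 pair did not differ. The estimate was 0.21 ± 0.11 (SE), adjusted p 0.869 in limma. The other SWI/SNF members, SMARCA2, SMARCA4, BRD7 and BRD9, had differences between -0.30 and 0.21 in the siRNA pairs and between -0.33 and 0.09 in the 2 lines.

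BAZ1A and BAZ2A, subunits of the ACF and NoRC remodelers, were among the 5 bromodomain genes with the smallest limma p. BAZ1A had 10.39 in BRD1-S cells, 10.25 in BRD1-L cells and 10.57 in untreated cells. It had 10.64, 10.56 and 10.50 with BRD1 siRNA, against 10.31, 10.21 and 10.49 with control siRNA, and the groups were separate by 0.005. BAZ1A thus lay lower than untreated cells in both lines with more BRD1, at all 4 probe sets, and higher with less BRD1 in the Qiagen and Dharmacon 1 pairs, at all 4 probe sets. Both lines lay within the range of the 4 arrays without an altered BRD1 level, 10.21 to 10.57, and set against untreated cells the BRD1 siRNA arrays differed by 0.07, -0.01 and -0.07. Its limma estimate of 0.23 ± 0.098 (SE) had the smallest p of the 34 genes, which ranked 1090 of 18239, with an adjusted p of 0.869.

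BAZ2A had 7.61 in BRD1-S cells, 7.84 in BRD1-L cells and 7.79 in untreated cells. With BRD1 siRNA it had 7.90, 7.83 and 7.91, against 7.64, 7.48 and 7.92 with control siRNA, and the groups overlapped through the Dharmacon 2 control. The estimate was 0.20 ± 0.12 (SE), adjusted p 0.869 in limma.

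ZMYND11, a MYND domain protein that reads methylated histone H3.3, was the only one of these 5 genes with an estimate below 0. ZMYND11 had 5.92 in BRD1-S cells, 6.18 in BRD1-L cells and 6.01 in untreated cells. It had 5.64, 5.81 and 5.97 with BRD1 siRNA, against 5.92, 6.11 and 5.96 with control siRNA, and the groups overlapped. Its estimate was -0.19 ± 0.087 (SE), adjusted p 0.869, and 2 of its 4 probe sets were above background.

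**Figure D3:**
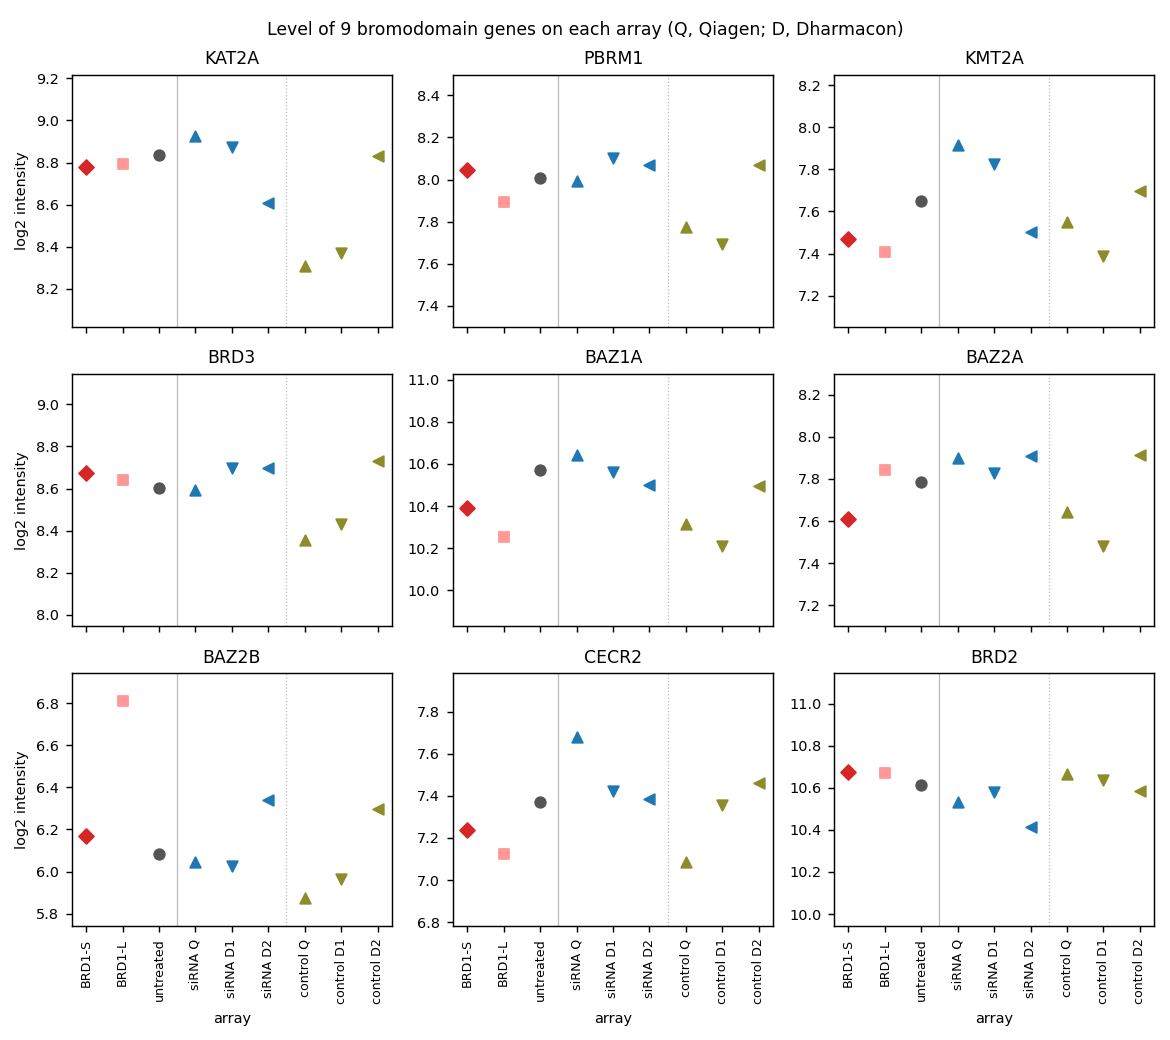
Level of 9 bromodomain genes on each array. The y axes give log2 intensity over a window of equal width, the x axes the 9 arrays, and each point is 1 array, with BRD1-S, BRD1-L and untreated cells at the left, BRD1 siRNA in the middle and control siRNA at the right. In KAT2A, PBRM1, BRD3 and BAZ2B the Qiagen and Dharmacon 1 controls are the lowest of the 9 points, and BRD2 is the panel in which each BRD1 siRNA array lies below each control siRNA array.

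BRD2 and BRD3 encode BET proteins, which couple acetylated chromatin to transcription elongation. BRD2 had 10.67 in BRD1-S cells, 10.67 in BRD1-L cells and 10.61 in untreated cells. It had 10.53, 10.58 and 10.41 with BRD1 siRNA, against 10.66, 10.64 and 10.58 with control siRNA (10.51 ± 0.08 against 10.63 ± 0.04, SD, n = 3 each). BRD2 was thus lower in all 3 pairs and the groups were separate, by less than 0.01, but the estimate of -0.12 ± 0.076 (SE) had an adjusted p of 0.869. BRD3 had 8.67 in BRD1-S cells, 8.64 in BRD1-L cells and 8.60 in untreated cells. With BRD1 siRNA it had 8.59, 8.70 and 8.70, against 8.36, 8.43 and 8.73 with control siRNA, with an estimate of 0.16 ± 0.098 (SE). Its siRNA groups overlapped.

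Separate siRNA groups were seen at 3 of 34 genes (8.82%), against 8.57% of all genes, so the share was that of the background. These were BRD2 and BRD7, lower with BRD1 siRNA, and BAZ1A, higher. BRD7, a subunit of PBAF, had 10.12 in BRD1-S cells, 10.05 in BRD1-L cells and 10.12 in untreated cells. It had 10.08, 10.12 and 10.11 with BRD1 siRNA, against 10.23, 10.25 and 10.13 with control siRNA, and the estimate was -0.10 ± 0.072 (SE). One direction in all 3 pairs was shown by 4 of 34 genes (11.8%), BRD2, BRD7, BAZ1A and BAZ2B, against 28% of all genes.

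The lowest values on the Qiagen and Dharmacon 1 controls, noticed in the members' values and then counted, occurred at 4 of 34 genes (11.8%), BRD3, BAZ2B, KAT2A and PBRM1, against 8.83% of all genes. The part of these 2 control arrays in the siRNA differences was not tested. With the Dharmacon 2 control in place of their own control, 0 of 34 genes passed 1.5-fold in the Qiagen pair, against 3.42% of all genes, and 0 in the Dharmacon 1 pair, against 2.76%, where the count with its own control was also 0. With the untreated array as control the counts were 0 and 0, against 4.59% and 3.53% of all genes.

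KMT2A, a histone H3 lysine methyltransferase outside the rule for genes given on every array, was singled out after its values were seen because its many probe sets had 1 direction in each siRNA pair. This held for 4 of the 28 bromodomain genes with more than 1 probe set (14.3%), KMT2A, BRD2, TAF1 and TRIM33, against 12.5% of all such genes. These 4 have 8, 2, 2 and 3 probe sets, and fewer probe sets share a direction more easily. The 12.5% is thus no measure for the 8 probe sets of KMT2A, of which 7 were above background on all arrays. KMT2A had 7.47 in BRD1-S cells, 7.41 in BRD1-L cells and 7.65 in untreated cells. It had 7.92, 7.83 and 7.50 with BRD1 siRNA, against 7.55, 7.39 and 7.70 with control siRNA. All 8 probe sets were higher with BRD1 siRNA in the Qiagen pair, all 8 were higher in the Dharmacon 1 pair and all 8 were lower in the Dharmacon 2 pair. The gene differences in these pairs were 0.36, 0.44 and -0.20, and the limma estimate was 0.20 ± 0.13 (SE) with an adjusted p of 0.869.

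BRWD1, a WD repeat protein with tandem bromodomains, was also singled out afterwards, since its probe sets differed in direction, which the gene value does not show. The probe set 11743550_at had 7.52 in BRD1-S cells, 6.32 in BRD1-L cells and 7.58 in untreated cells. It had 7.89, 8.20 and 7.62 with BRD1 siRNA, against 7.05, 6.84 and 7.52 with control siRNA. On BRD1-L, the Qiagen control and the Dharmacon 1 control this probe set was thus lower than on each of the other 6 arrays.

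The probe set 11743716_a_at of BRWD1 had 6.27 in BRD1-S cells, 6.53 in BRD1-L cells and 6.52 in untreated cells. It had 6.62, 6.77 and 6.51 with BRD1 siRNA, against 7.14, 7.32 and 6.41 with control siRNA, so that the Qiagen and Dharmacon 1 controls were its highest values. In the Dharmacon 1 pair the first probe set differed by 1.36 and the second by -0.55 while the gene value differed by -0.07. The widest distance between probe sets of BRWD1 in that pair was 1.91, the largest among the 28 bromodomain genes with more than 1 probe set. Of all 11823 genes with more than 1 probe set, 0.195% reached or passed it. In the Qiagen pair the distance was 1.46 (1.05%), and between BRD1-L and untreated cells 1.27 (0.744%). Gene and pair were picked with these values in view, and the distance can grow with the number of probe sets. The shares thus do not measure how rare this is. Probe sets of a gene can lie on different transcripts, and which transcripts these read was not examined.

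**Figure D4:**
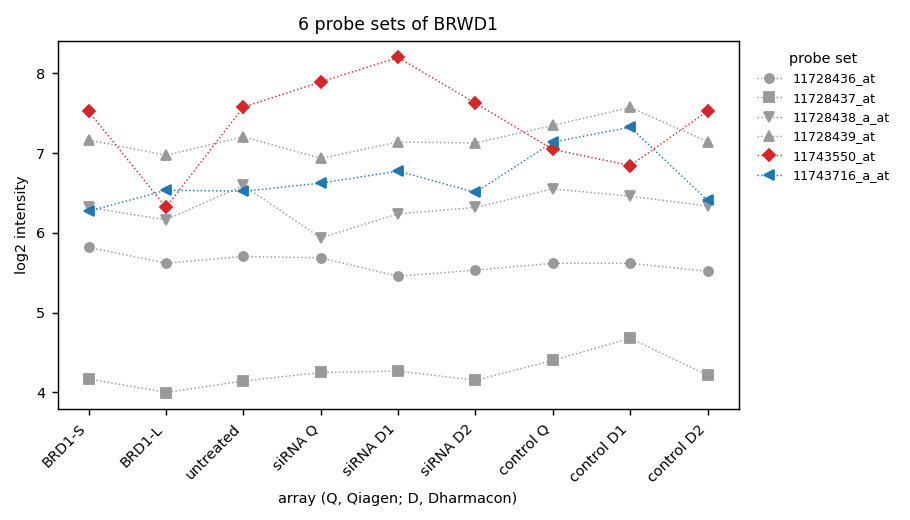
The 6 probe sets of BRWD1 on each array. The y axis gives log2 intensity and the x axis the 9 arrays, each point is 1 probe set on 1 array, and the dotted lines only connect points of a probe set. The red probe set is lowest in BRD1-L cells and on the Qiagen and Dharmacon 1 controls, at 6.32, 7.05 and 6.84, and the blue one is highest on these 2 controls, at 7.14 and 7.32.

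Over all 9 arrays, the 34 genes varied about as much as all genes by the median. The 30 of them above background varied less than all genes above background, which was not tested. The distance between a gene's highest and lowest array had a median of 0.43 and a maximum of 0.94, for BAZ2B, and passed 2-fold at 0 of 34 genes. The median was 0.40 over all 18239 genes, of which 5.87% passed 2-fold, and 0.50 over the 10882 genes above background, of which 8.85% did. For the 30 bromodomain genes above background it was 0.44. Values past 1.5-fold between the 2 most distant arrays were reached by 8 of the 34 bromodomain genes, or 23.5%, against 25.8% of all genes. Of the 30 bromodomain genes above background 8 reached them (26.7%), against 37.2% of all genes above background.

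The partners of these proteins that lack a bromodomain were counted from a list of 100 subunits of the same complexes, of which 99 were measured and 97 were above background. In BRD1-S cells 0 of 99 passed 1.5-fold, against 1.13% of all genes. In BRD1-L cells 2 did, against 4.81% of all genes. SMARCA1, an ISWI ATPase, had 9.55 in BRD1-S cells, 10.35 in BRD1-L cells and 9.27 in untreated cells, and 8.98, 8.89 and 9.79 with control siRNA. Its BRD1-L value was higher by 1.08 than that of untreated cells and by 0.56, under 1.5-fold, than that of the Dharmacon 2 control. TAF4B, a subunit of TFIID, was lower in BRD1-L cells by 0.69 than in untreated cells and by 0.40, under 1.5-fold, than on the Dharmacon 2 control array. In the Qiagen pair 6 of 99 partners were lower past 1.5-fold with BRD1 siRNA and 0 higher. Of all 18239 genes 246 were lower and 395 higher in that pair, 3.51% either way. Of the 10882 genes above background, the closer match to these partners, 231 were lower and 381 higher. In the Dharmacon 1 pair 2 partners were lower and 1 higher. Of all genes 178 were lower and 436 higher there, 3.37% either way, and of genes above background 154 were lower and 407 higher. In the Dharmacon 2 pair 0 partners passed, against 0.603% of all genes. With limma 0 of 99 partners had an adjusted p below 0.05, and 7 of 99 (7.07%) had an unadjusted p below 0.05, against 4.9% of all genes. The bromodomain subunit of TFIID, TAF1, had 8.04, 8.18 and 7.87 with BRD1 siRNA, against 7.97, 7.93 and 8.08 with control siRNA.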

How the data were processed

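The deposited table held 1 log2 intensity for each of 49386 probe sets on each of 9 arrays. Per the study's supplementary methods the authors scaled probe intensities to the mean of each array and took log2; how probes were summarised and background was removed is not given in the sources used here. Gene symbols came from GEO's platform annotation; 1327 probe sets with several symbols and 2800 with none were left out. A gene's value was the mean of its probe sets.

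Groups followed the labels. The methods state a 1.5-fold threshold and no test. The siRNA arrays were fitted with limma 3.58.1 (R 4.3.3; lmFit and eBayes, reagent as covariate, Benjamini-Hochberg adjustment over 18239 genes at 0.05), checked on simulated data. Arrays of the same reagent and number deviated together, with correlations of 0.333 (Qiagen), 0.224 (Dharmacon 1) and 0.333 (Dharmacon 2) across genes, though the Dharmacon 1 siRNA array lay nearly as close to the Qiagen control (0.215), so the pairs served as a block in an alternative fit. Other alternatives were other scalings, filters, thresholds and controls and leaving out each siRNA array. Values on every array are given for members past 1.5-fold in a comparison, the 5 with the smallest limma p, those with separate siRNA groups, PBRM1, BRD2, BRD3, CREBBP and EP300; partners are named where past 1.5-fold in BRD1-S or BRD1-L cells, and any other gene named was picked with its values in view. The members, lists and rules were chosen with earlier results of these data known. Promoter windows came from RefSeq on GRCh38.p14. No depth or detection calls were at hand, so the number of arrays and the level over background limit the precision.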

Additional observations from a re-analysis of the deposited data

How the results depend on the processing

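The count of limma calls was 0 in every alternative, the replicate block, both rescalings, the filter, the variance trend, all 9 arrays, the Dharmacon arrays alone and single probe sets included, except that leaving out 1 siRNA array at a time gave 0 to 33 called genes of 18239. The 33 came without the Dharmacon 2 control, and none was a bromodomain gene. In that fit KAT2A was at 0.48 and BAZ1A at 0.32 with adjusted p of 0.187 and 0.168. Over the fits without 1 array KAT2A ranged from 0.14 to 0.48, BAZ1A from 0.16 to 0.32, PBRM1 from 0.10 to 0.32 and BAZ2A from 0.08 to 0.33. The interaction gave 0 calls in each alternative, and members called by limma were 0 in each. With the replicate block 1471 genes had an unadjusted p below 0.05, against 894 without it, and no call differed. The sign of the CECR2 estimate turned to -0.0044 with the Dharmacon arrays alone. Leaving out the Qiagen BRD1 siRNA or control array gives that same estimate, since the reagent covariate takes up the Qiagen array that remains. The sign of the EP300 estimate turned to 0.0096 without the Dharmacon 2 BRD1 siRNA array. The cause of these changes was not tested. Over the fits without 1 array CECR2 ranged from -0.0044 to 0.28 and EP300 from -0.18 to 0.0096.

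Counts of bromodomain genes past 1.5-fold depended on the rule. By any single probe set they were 1 in BRD1-S cells, 4 in BRD1-L cells and 7, 5 and 2 in the pairs Qiagen, Dharmacon 1 and Dharmacon 2. A 2-fold threshold left 0 in BRD1-L cells and 0 in the Qiagen pair, against 1.05% and 0.482% of all genes. Quantile normalization left 1 in the Qiagen pair, KAT2A, against 3.53% of all genes. The Dharmacon 2 control or the untreated array as control, chosen after seeing the data, left 0 in that pair, against 3.42% and 4.59%. The median of the probe sets gave 3 in the Qiagen pair, CREBBP added, against 5.2% of all genes. In BRD1-L cells the Dharmacon 2 control left 1, BRWD3 and not BAZ2B, against 3.57% of all genes. With probe sets above background on 1 of the 2 arrays kept, 1 gene, SP100, passed in the Dharmacon 2 pair, against 1.48% of the genes kept. SP100 passed through a probe set kept by the higher array alone, so it is no support for a difference. By the median of its probe sets BRD1 differed by 0.85 with BRD1-S and by 0.76 with BRD1-L. Among complex partners, any single probe set gave 1 in BRD1-S cells, 8 in BRD1-L cells and 24, 10 and 2 in the 3 pairs. The shares of all genes were 2.73%, 10.4%, 13.3%, 10.1% and 3.13%. The mean of the control siRNA arrays as control gave 1 partner with BRD1-S and 3 with BRD1-L, against 2.18% and 6.23% of all genes. The number of bromodomain genes above background was 25 to 31 in place of 30, against 43.9% to 64.2% of all genes. TRIM66 and ZMYND11 were lost under both stricter levels.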
